A study of Rattus norvegicus with 36 samples.

Results

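The let-7 family was examined in rat colon through 9 mature miRNAs, the guide arms rno-let-7a-5p, rno-let-7b-5p, rno-let-7c-5p, rno-let-7d-5p, rno-let-7e-5p, rno-let-7f-5p, rno-let-7g-5p, rno-let-7i-5p and rno-miR-98-5p. They were chosen by name, and all 9 were found among the 559 miRNAs of the small RNA-seq table and among the 494 that passed the filter on low values. The animals were male F344 wild-type (WT) rats and Pirc rats (F344/NTac-Apc am1137), which carry a germline mutation in Apc and develop colon tumors. From 4 weeks of age they were fed AIN93 diet, either alone (control) or with 10% w/w freeze-dried baby spinach (SPI), and colon was collected at 30 weeks. WCN and WSN were normal colon of WT rats on control and SPI diet. PCN and PSN were normal-looking colon of Pirc rats on control and SPI diet, and PCT and PST were Pirc colon tumors on control and SPI diet. Each of the 6 groups had 3 small RNA-seq and 3 RNA-seq libraries, made from homogenised colonic tissue, so that fewer cells of a type and less RNA per cell cannot be told apart. The study describes the libraries of a group as biological replicates and the tumor and normal-looking pieces as matched within animals, but no label ties a replicate number to an animal.

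The let-7 miRNAs were first described as regulators of developmental timing in Caenorhabditis elegans. In mammals they accumulate as tissues differentiate and repress mRNAs of growth and of the embryonic state, among them Hmga2, Lin28, Myc and cyclin genes. The RNA-binding proteins LIN28A and LIN28B block maturation of let-7 precursors, and loss of mature let-7 has been described in many tumor types.

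The mature sequences are shown because all 9 share the seed, the stretch that pairs with target mRNAs, and because the few bases outside it decide whether reads can be assigned to one member. They are the RefSeq sequences of the GRCr8 assembly, 5′ to 3′, with the seed (bases 2 to 8) in capitals.
rno-let-7a-5p: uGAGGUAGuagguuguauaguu
rno-let-7b-5p: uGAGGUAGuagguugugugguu
rno-let-7c-5p: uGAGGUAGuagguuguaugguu
rno-let-7d-5p: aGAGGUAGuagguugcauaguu
rno-let-7e-5p: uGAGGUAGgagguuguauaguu
rno-let-7f-5p: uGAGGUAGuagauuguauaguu
rno-let-7g-5p: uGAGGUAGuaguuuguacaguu
rno-let-7i-5p: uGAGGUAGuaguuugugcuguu
rno-miR-98-5p: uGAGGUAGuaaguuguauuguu
These 9 were the only rat mature miRNAs of the RefSeq table with the seed GAGGUAG, and each was 22 bases long. Counted from 1 at the 5′ end, with the let-7a base first, rno-let-7c-5p differed from rno-let-7a-5p by A19G, rno-let-7e-5p by U9G and rno-let-7f-5p by G12A. rno-let-7b-5p differed by A17G and A19G, rno-let-7d-5p by U1A and U16C, rno-let-7g-5p by G12U and U18C, and rno-miR-98-5p by G11A and A19U. rno-let-7i-5p differed by 4 bases, G12U, A17G, U18C and A19U.

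In GRCr8 the members came from 12 places on 6 chromosomes. rno-let-7e-5p lay at chr1:67350243-67350264 within Spaca6, with the Mir99b hairpin 95 bp upstream and Mir125a 353 bp downstream on the same strand. rno-let-7a-5p lay at chr17:16320145-16320166 and, inside the non-coding gene Lnc215, at chr8:50805219-50805240, where Mir100 was 6828 bp away. rno-let-7c-5p lay at chr11:29688127-29688148, 639 bp from Mir99a in a non-coding gene, and at chr7:118683636-118683657, near rno-let-7b-5p at chr7:118684044-118684065. rno-let-7d-5p (chr17:16322273-16322294) and a copy of rno-let-7f-5p (chr17:16320508-16320529) were in the chromosome 17 cluster with let-7a. The other copy of rno-let-7f-5p (chrX:24460052-24460073) and rno-miR-98-5p (chrX:24460663-24460684) lay in Huwe1. rno-let-7g-5p (chr8:115701026-115701047) lay where Wdr82 and Rpl29 are annotated, and rno-let-7i-5p (chr7:60527935-60527956) was on the minus strand.

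The signal, the authors' normalised value, was a read number scaled by a library-wide constant. Some rows of the table could not be told apart. The row of rno-let-7i-5p stood at 95.7% to 98.8% of the row of rno-let-7g-5p in each of the 18 libraries, although the sequences differ by 2 bases, and their correlation was 1.00. The row of rno-let-7a-5p was identical in 18 of 18 libraries to that of rno-miR-3596a, a miRNA with the sequence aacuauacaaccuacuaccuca, which is the exact reverse complement of let-7a over 22 bases. The row of rno-miR-3596c, the reverse complement of let-7e over 21 bases, stood at 99.3% to 99.9% of rno-let-7e-5p, and that of rno-miR-3596b at 91.9% to 95.8% of rno-let-7d-5p. Over all miRNAs, 71 rows fell into 29 sets with the same reads in every library. Values of let-7g and let-7i are therefore given as a pair that these data cannot separate, and sums over the family may count a read more than once.

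The family was abundant in colon, with rno-let-7g-5p and rno-let-7i-5p at ranks 8 and 9 of 559 by mean signal over the 18 libraries (76412 and 74656). rno-let-7a-5p followed at 47730 (rank 17) and rno-let-7f-5p at 35913 (rank 20). A middle set held rno-let-7c-5p at 11413, rno-let-7b-5p at 8368 and rno-let-7d-5p at 3196. The least abundant were rno-let-7e-5p at 1450 (rank 83) and rno-miR-98-5p at 526 (rank 123). The order was the same in 18 of 18 libraries for each pair of neighbours, although let-7e exceeded miR-98 by as little as 1.00 times in a tumor and by up to 5.64 times in normal colon. The library totals were 724954 to 5376082 reads recovered from the table, taking the smallest value above 0 of a library as 2 reads. The rarest members rested on 296 to 4314 reads (let-7e) and 240 to 1277 reads (miR-98).

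**Figure D1:**
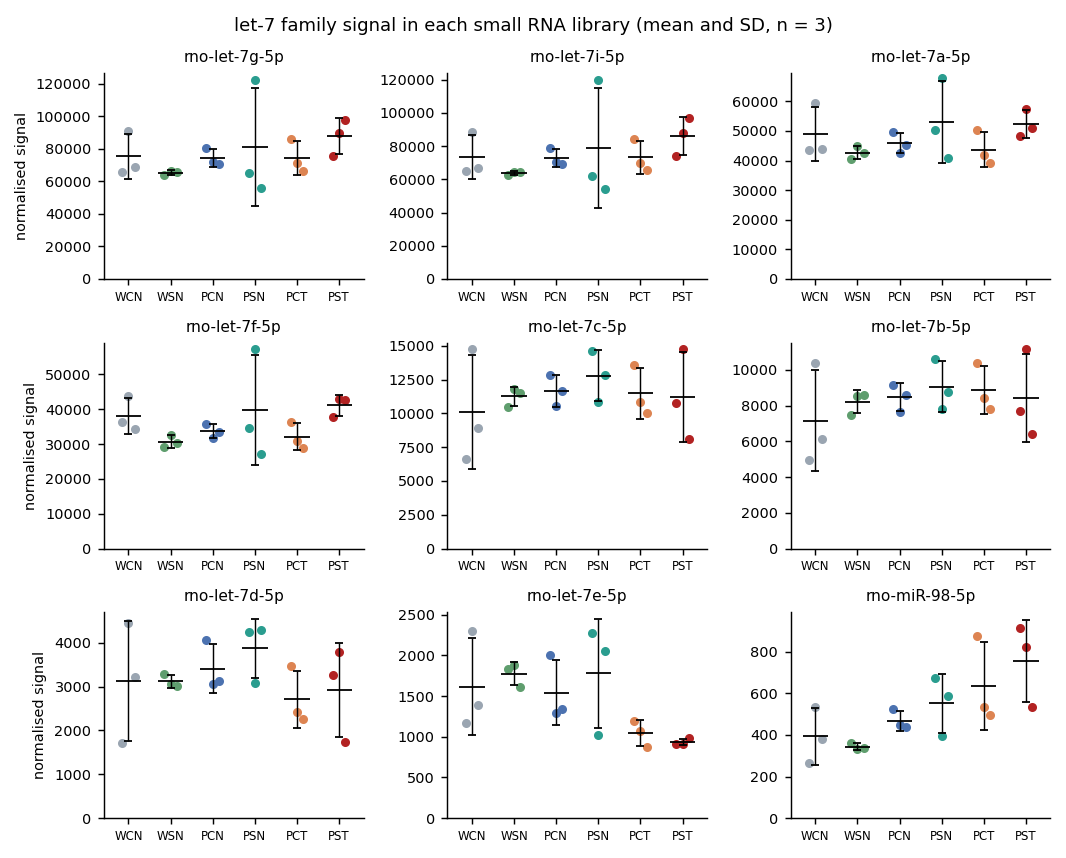
Normalised signal of the 9 let-7 family miRNAs (y axis, linear from 0) in the 18 small RNA-seq libraries, by group on the x axis; points are libraries, bars the mean and SD of 3. The 6 tumor libraries of rno-let-7e-5p lie between 877 and 1195, while PSN 2 is the highest library for let-7a, let-7f, let-7g and let-7i.

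The highest library exceeded the lowest by 1.74 times for rno-let-7a-5p, by 2.61 times for rno-let-7e-5p and by 3.46 times for rno-miR-98-5p, with coefficients of variation of 15.9% to 36.1% over the family. PSN 2 stood apart from the other PSN libraries, with a rno-let-7g-5p signal of 122564 against 64973 and 55933, and a rno-let-7e-5p signal of 1019 against 2276 and 2048. The summed signal of the 9 members was 258129 ± 49919 in WCN, 227163 ± 7376 in WSN, 252399 ± 18422 in PCN, 280621 ± 97591 in PSN, 248094 ± 34074 in PCT and 291580 ± 27985 in PST (SD, n = 3). The tumor groups overlapped their normal-looking counterparts, with log2 differences of the mean of -0.03 in PCT vs. PCN and 0.11 in PST vs. PSN.

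As a share of all miRNA signal the family stood at 7.15% ± 1.18 in WCN, 7.40% ± 0.687 in WSN, 9.55% ± 0.723 in PCN, 9.21% ± 1.63 in PSN, 11.0% ± 1.46 in PCT and 11.97% ± 1.69 in PST (SD, n = 3). The share was not tested, and the normal libraries (6.07% to 11.1%) overlapped the tumors (9.60% to 13.9%). Over the same libraries the summed signal of 6 muscle miRNAs, led by rno-miR-143-3p, was 646110 to 1445548 in the WT libraries, 291902 to 642080 in normal-looking Pirc colon and 53086 to 153579 in tumors. Its part in the share of let-7 was not tested. Members were compared on the authors' scale.

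Whether let-7 is lower in tumors was addressed by PCT vs. PCN and PST vs. PSN. Of the 9 members, 0 were called in PCT vs. PCN (limma, Benjamini-Hochberg adjusted p under 0.05; 0 also at an unadjusted p under 0.05), where 15.8% of the 494 miRNAs tested were called. In PST vs. PSN 1 was called, rno-let-7e-5p, against 22.1% of all miRNAs. The family median was -0.03 and 0.01 on the log2 scale, beside -0.00 and -0.18 over all miRNAs. The estimates of let-7a, let-7f, let-7g and let-7i lay between -0.08 and 0.21 in both comparisons, with intervals between -0.56 and 0.72; in PCT vs. PCN the signs of let-7a, let-7f and let-7g turn with the scaling. For let-7b they were 0.06 and -0.13 and for let-7c -0.03 and -0.22, the second of each turning to 0.34 and 0.19 after quantile normalization, and that of let-7b to 0.15 when scaled to the library total. A general loss of let-7 in these tumors was not detected.

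rno-let-7e-5p was the member with the lowest estimate in both. Its signal was 2001, 1287 and 1340 in PCN and 1195, 1075 and 877 in PCT, and the groups did not overlap. It was 2276, 1019 and 2048 in PSN and 915, 908 and 984 in PST, again with no overlap, although PSN 2 lay close to the tumors. In PST vs. PSN let-7e fell by 0.85 on the log2 scale (95% interval -1.47 to -0.22, adjusted p = 0.0462, limma). In PCT vs. PCN the difference was -0.54 (-1.16 to 0.08, adjusted p = 0.240) and was not called. The difference between the tumor effects on the diets was -0.31 (-1.19 to 0.57), and 0 of 9 members were called for that interaction, as were 0% of all miRNAs. With the tumor effect averaged over both diets, a contrast added after the data were seen, let-7e fell by 0.69 (-1.13 to -0.25, adjusted p = 0.0126), the 1 member called beside 35.4% of all miRNAs.

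The call of rno-let-7e-5p in PST vs. PSN was close to its threshold. It remained in 5 of 18 fits that left out a library (without PCN 1, PCT 3, PSN 2, WCN 1 or WCN 2), and the estimate ran from -1.21 without PSN 2 to -0.63 without PSN 1 (adjusted p = 0.209). Scaled to the library total, let-7e remained below 0 at -0.57 in PST vs. PSN (adjusted p = 0.216) and -0.31 in PCT vs. PCN.

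Tumors were also set against WT colon, which shares no animal with them. The signal of rno-let-7e-5p was 1167, 2294 and 1384 in WCN and 1837, 1877 and 1614 in WSN, so that each PST library lay below each WSN library, while PCT overlapped WCN. In PST vs. WSN 2 of 9 members were called, beside 23.3% of all miRNAs: let-7e fell by 0.92 (-1.54 to -0.30, adjusted p = 0.0257) and rno-miR-98-5p rose by 1.10 (0.46 to 1.75, adjusted p = 0.0128). The call of let-7e was lost without PST 1, PST 2, WSN 1 or WSN 2 (estimates -0.99 to -0.88 over the 18 fits, adjusted p up to 0.0785) and when scaled to the library total (-0.59), whereas that of miR-98 was kept in 18 of 18 such fits. In PCT vs. WCN 0 of 9 were called beside 21.1% of all miRNAs (limma; 1 at an unadjusted p under 0.05, miR-98), with let-7e at -0.57 (-1.19 to 0.05), a value that turned to 0.10 when scaled to the library total. Under that scaling, which moved the median of all miRNAs from -0.10 to 0.50, 179 of all 494 miRNAs were called in PCT vs. WCN. Among them were 6 of 9 members, all higher: let-7a (0.52), let-7b (1.04), let-7c (0.92), let-7g (0.66), let-7i (0.67) and miR-98 (1.37). Of these let-7a and let-7g turned in sign, as did let-7d (0.54) and let-7f (0.42) without a call.

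rno-miR-98-5p, which differs from let-7a at G11A and A19U, was the only member whose estimate was above 0.3 in each of the 4 comparisons of tumor with normal tissue. Its signal was 264, 536 and 382 in WCN and 362, 333 and 336 in WSN. It was 525, 447 and 436 in PCN and 674, 395 and 588 in PSN. In tumors it was 877, 536 and 494 in PCT and 913, 825 and 535 in PST, so that tumors overlapped normal-looking Pirc colon, while each PST library exceeded each WSN library. The difference was 0.39 (-0.25 to 1.03) in PCT vs. PCN, 0.45 (-0.19 to 1.10) in PST vs. PSN and 0.70 (0.06 to 1.34, adjusted p = 0.109) in PCT vs. WCN, none of them called. Without WCN 2 the last was 0.95 (adjusted p = 0.0456). PCT vs. PCN and PCT vs. WCN share the PCT libraries, and PST vs. PSN and PST vs. WSN the PST libraries.

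**Figure D2:**
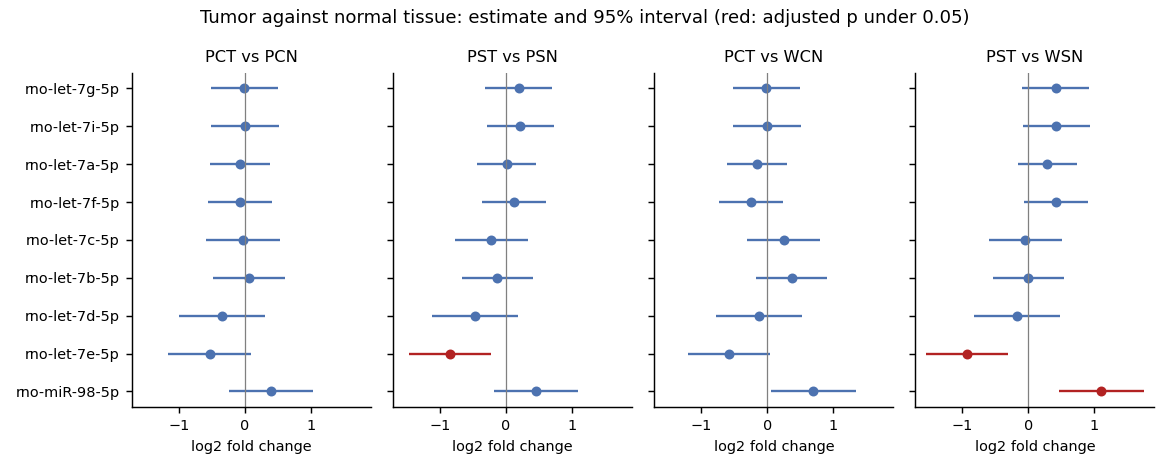
Log2 fold change of each let-7 family member (x axis) in the 4 comparisons of tumor with normal tissue, with 95% intervals from limma; red marks an adjusted p under 0.05. rno-let-7e-5p is below 0 in the 4 panels (-0.54 in PCT vs. PCN, -0.85 in PST vs. PSN, -0.92 in PST vs. WSN, and -0.57 in PCT vs. WCN, which turns to 0.10 when scaled to the library total) and rno-miR-98-5p above 0 (0.39, 0.45, 1.10 and 0.70).

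The remaining 7 members overlapped between tumor and normal-looking tissue. rno-let-7d-5p was 4055, 3061 and 3128 in PCN and 3461, 2416 and 2258 in PCT, a difference of -0.35 (-0.9996 to 0.31) that turned to 0.16 after quantile normalization. In PSN it was 4242, 3089 and 4294 and in PST 3257, 3780 and 1734, a difference of -0.47 (-1.12 to 0.19). Over the alternative ways of processing, this difference ran from -0.47 to 0.10. rno-let-7g-5p, given for the pair with let-7i, was 80765, 71865 and 70855 in PCN and 85745, 70993 and 66311 in PCT, and the interval of the difference was -0.51 to 0.50. In PSN it was 64973, 122564 and 55933 and in PST 75673, 89748 and 97875, with an interval of -0.31 to 0.70. In PST vs. WSN the libraries of 6 members did not overlap, let-7g and let-7i being a pair that cannot be separated. The share of all miRNAs without overlap was not computed, so this count has no background, and 23.3% were called there. Of the 6, let-7a, let-7f, let-7g and let-7i were higher in PST by 0.29 to 0.43 without a call. Scaled to the library total these 4 were called (0.62, 0.75, 0.75 and 0.76 in that order, limma adjusted p = 0.0262, 0.00984, 0.0134 and 0.0131), as was miR-98. Under that scaling 128 of all 494 miRNAs were called there.

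Ratios within a library do not depend on the scaling, and some were described after the values had been seen, without a test. The signal of rno-miR-98-5p was 17.7% to 38.8% of that of rno-let-7e-5p in the 12 normal libraries and 49.9% to 99.8% in the 6 tumor libraries, with no overlap. The signal of rno-let-7e-5p was 0.832% to 3.66% of that of rno-let-7g-5p in normal tissue (median 2.46%), the lowest being PSN 2, and 1.01% to 1.51% in tumors. Within the sum of the 9, let-7e made up a median of 0.717% in normal and 0.375% in tumor libraries, while let-7g made up 29.1% and 29.96%.

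**Figure D3:**
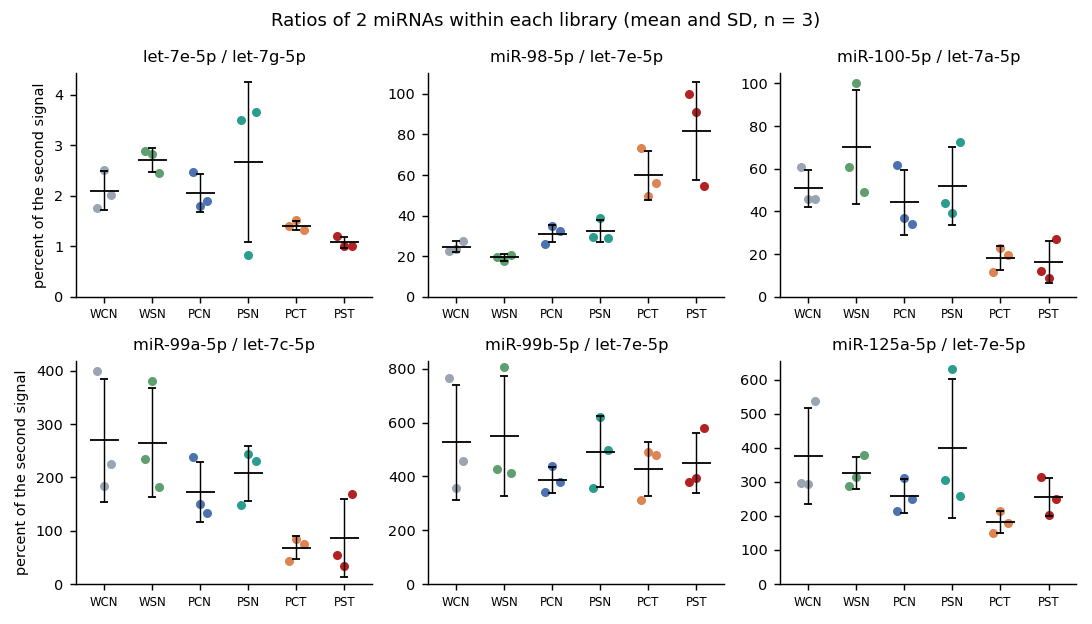
Signal of a miRNA as a percentage of the signal of another in the same small RNA-seq library (y axis), by group; points are libraries, bars the mean and SD of 3. The ratios of miR-98 to let-7e and of miR-100 to let-7a do not overlap between the 12 normal and the 6 tumor libraries, whereas miR-99b to let-7e does.

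The 5 miRNAs that share precursor loci with let-7 were read beside it. These cluster partners belong to the seed families of miR-99 and miR-125, and 4 of their mature sequences are shown, seeds in capitals as above, to set them beside the let-7 seed; that of rno-miR-99a-5p is named only.
rno-miR-99b-5p: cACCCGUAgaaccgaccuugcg
rno-miR-100-5p: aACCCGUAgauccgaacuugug
rno-miR-125a-5p: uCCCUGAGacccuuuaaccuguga
rno-miR-125b-5p: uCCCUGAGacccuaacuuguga
In PCT vs. PCN 4 of 5 were lower, beside 9.72% of all miRNAs called lower, and in PST vs. PSN 5 of 5, beside 14.6%. The median change was -1.04 and -1.75 on the log2 scale. rno-miR-100-5p, 6828 bp from a let-7a hairpin, was 30663, 15667 and 15461 in PCN and 5933, 9520 and 7653 in PCT, and fell by 1.37 (adjusted p = 0.00947). In PST vs. PSN it fell by 1.79 (adjusted p = 6.79e-04), with 21964, 26652 and 29598 in PSN and 5947, 5121 and 13862 in PST, so that neither pair of groups overlapped. Its signal was 34.1% to 100% of that of let-7a in normal tissue and 8.90% to 27.3% in tumors. The rows of rno-miR-99a-5p and rno-miR-100-5p were nearly the same, rno-miR-99a-5p at 97.1% to 100% of rno-miR-100-5p, and cannot be read apart.

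rno-miR-99b-5p and rno-miR-125a-5p flank let-7e on chromosome 1. rno-miR-125a-5p fell by 1.04 in PCT vs. PCN (adjusted p = 0.0110) and by 1.40 in PST vs. PSN (adjusted p = 6.79e-04). rno-miR-99b-5p fell by 0.96 in PST vs. PSN (adjusted p = 0.0195), a call held in 14 of 18 fits that left out a library and lost when scaled to the library total (adjusted p = 0.0852), and differed by -0.41 in PCT vs. PCN (-1.01 to 0.18, adjusted p = 0.368). The signal of rno-miR-99b-5p was 343% to 806% of that of let-7e in normal and 312% to 580% in tumor libraries, an overlap over most of the range. rno-miR-125b-5p fell by 1.04 in PCT vs. PCN (adjusted p = 0.0463), a call held in 8 of 18 such fits and lost, among others, without PCN 1 (adjusted p = 0.270), and by 1.75 in PST vs. PSN (adjusted p = 8.51e-04).

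Some markers of other cell types moved with these comparisons. In PCT vs. PCN and PST vs. PSN, in that order, 11.7% and 16.5% of all genes were called lower and 21% and 25.9% higher. Of all 494 miRNAs, 9.72% and 14.6% were called lower, and 30 and 37 miRNAs higher. Of 10 smooth muscle mRNAs, 9 were lower in PCT vs. PCN and 10 in PST vs. PSN, and their summed RPKM (reads per length of transcript and mapped reads) was 1367 to 9506 in the normal and 184 to 382 in the tumor libraries. Of 6 muscle miRNAs 5 and 4 were lower. rno-miR-133a-3p and rno-miR-133b-3p were listed at 0 in 2 PCT and 3 PST libraries, and also in 1 WCN and 1 PSN library. Of 6 leukocyte mRNAs 3 and 4 were higher, their sum running from 31.9 to 110.5 RPKM in normal tissue to 242 to 1774 in tumors. The rise was uneven among them. With median-of-ratios scaling, S100a8 and S100a9 had the largest rises, 3.78 and 4.17 in PCT vs. PCN and 2.71 and 4.29 in PST vs. PSN. With that scaling Cd3e and Cd68 were called higher in PST vs. PSN only. On the RPKM scale of the counts above, Cd68 was called in PCT vs. PCN in 12 of 18 fits that left out a library. Ptprc (0.17 and 0.53) and Csf1r (0.15 and 0.64), again with median-of-ratios scaling, were called in neither comparison. The sum therefore does not show a rise of every leukocyte marker. Epithelial mRNAs were lower for 1 and 2 of 6, and of 6 fibroblast and endothelial mRNAs 1 was higher and 1 lower in PCT vs. PCN and 2 higher in PST vs. PSN. Among miRNAs, 1 of 8 epithelial markers (12.5%) was lower in each comparison, near the share of all miRNAs called lower. Of 5 leukocyte markers 0 and 1 were higher (limma), and 1 of 5 had an unadjusted p under 0.05 in each. rno-miR-223-3p rose by 0.96 in PST vs. PSN. The part of tissue make-up in the values of let-7e, miR-98 and the cluster partners was not tested.

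Genotype and diet moved no member past the threshold in normal tissue. In PCN vs. WCN 0 of 9 were called (limma; 0 at an unadjusted p under 0.05), as were 0% of all miRNAs, with estimates from -0.17 (let-7f, which turned to 0.28 when scaled to the library total) to 0.31 and intervals reaching from -0.65 to 0.95. In PSN vs. WSN 0 were called beside 0.202% of all miRNAs, and 1 had an unadjusted p under 0.05, rno-miR-98-5p at 0.65 (0.01 to 1.29, adjusted p = 0.405), whose groups did not overlap. The genotype by diet interaction had 0 of 9 members called (limma; 0 at an unadjusted p under 0.05) beside 0.202% of all miRNAs, with estimates from -0.18 to 0.47.

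SPI diet likewise gave no called member in any tissue. In PSN vs. PCN the 9 estimates lay between 0.02 and 0.20, with intervals that reached from -0.49 to 0.85, and 0 of 9 were called beside 0.202% of all miRNAs. In WSN vs. WCN the estimates ran from -0.30 (let-7f) to 0.27 (let-7b) with 0 of 9 called, as 0% of all miRNAs, although rno-let-7f-5p (36227, 43932 and 34212 in WCN against 29117, 32655 and 30395 in WSN) and let-7i did not overlap. In PST vs. PCT they ran from -0.15 (let-7e) to 0.36 (let-7f) with 0 of 9 called beside 0.202% of all miRNAs, and intervals from -0.78 to 0.91. Of the 9 only let-7f did not overlap there, with 36438, 30896 and 29017 in PCT and 37655, 43041 and 42582 in PST. The share of all miRNAs without overlap was not computed for these comparisons. At an unadjusted p under 0.05 the limma count was 0 in each of the 3 diet comparisons. Differences within these intervals remain compatible with the data of 3 libraries a group.

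Members fell into sets that varied together over the 18 libraries. rno-let-7a-5p, rno-let-7f-5p, rno-let-7g-5p and rno-let-7i-5p were correlated with each other at Pearson r of 0.87 to 1.00 on the log2 scale. rno-let-7b-5p and rno-let-7c-5p had r = 0.98 and rno-let-7c-5p and rno-let-7d-5p 0.87, while let-7b and let-7g had 0.14. rno-let-7e-5p was closest to let-7d (r = 0.61) and had r = -0.20 with rno-miR-98-5p. Over the 12 normal libraries let-7e and miR-98 had r = 0.61 and let-7d and miR-98 0.88. These are descriptions across libraries that share scaling factors, tissue groups and, for some pairs of rows, reads.

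**Figure D4:**
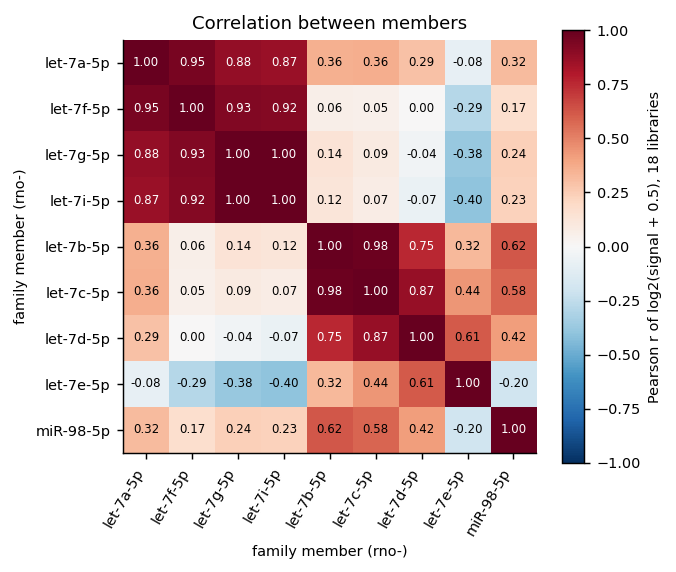
Pearson r of log2(signal + 0.5) between let-7 family members over the 18 small RNA-seq libraries, as numbers and color. let-7a, let-7f, let-7g and let-7i form a set with r from 0.87 to 1.00, let-7b and let-7c another at 0.98, and let-7e and miR-98 are at -0.20.

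Outside the family, the miRNAs whose log2 signal was most like that of the sum of the 9 members over the 18 libraries were rno-miR-3596a (r = 0.95), which repeats the row of let-7a, rno-miR-3559-5p (0.74), rno-miR-155-5p (0.69), rno-miR-27a-5p (0.68) and rno-miR-148b-5p (0.67). Over the 12 normal libraries the values were 0.97, 0.79, 0.63, 0.66 and 0.67. The points share the libraries and their scaling factors.

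The 12 passenger (3p) arms of the family are mostly discarded when the guide strand is loaded. Their mean signals were below those of the guide arms other than rno-miR-98-5p. The most abundant was rno-let-7d-3p with group means of 695 to 1071, above the mean of 526 of rno-miR-98-5p over the 18 libraries. The PST libraries of rno-let-7d-3p spread from 400.0 to 2091. rno-let-7e-3p was 37.98, 17.98 and 39.86 in PSN and 9.786, 15.34 and 14.81 in PST, without overlap, a difference of -1.17 (-2.13 to -0.21, adjusted p = 0.0661). rno-let-7a-2-3p, whose values were 36.4, 16.92 and 36.0 in PSN and 9.786, 15.34 and 13.58 in PST, differed by -1.12 (limma, adjusted p = 0.102). The row of rno-let-7e-3p stood at 100% to 157% of that of rno-let-7a-2-3p, with at most 9 reads between them in a library. These differences cannot be read apart. They rest on few reads, a read being worth a signal of 1.63 in PST 1 and 3.07 in PST 2. rno-let-7i-3p differed by -0.81 (-1.85 to 0.23) in PCT vs. PCN. rno-let-7a-1-3p and rno-let-7c-2-3p had the same values in every library, at 0.35 and 0.76 in the tumor comparisons, and rno-let-7f-2-3p was close to them at 0.43 and 0.87. rno-let-7b-3p differed by -0.18 and -0.27, rno-let-7f-1-3p by -0.25 and -0.50 and rno-miR-98-3p by -0.38 and 0.48. rno-let-7c-1-3p and rno-let-7g-3p were listed at 0 in many libraries. No 3p arm was called in either tumor comparison (limma; 0 and 2 at an unadjusted p under 0.05), beside 15.8% and 22.1% of all miRNAs.

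Genes known as let-7 targets, which base-pair with the shared seed, were read from the RNA-seq libraries. Of 41 listed targets 34 were in the table and 28 passed the filter. In PCT vs. PCN 12 were higher and 2 lower, beside 21% of 11544 genes called higher and 11.7% lower (32.7% either way). In PST vs. PSN 13 were higher and 1 lower, beside 25.9% and 16.5% (42.3% either way). The median target stood at 0.56 and 0.43 on the log2 scale against 0.13 and 0.12 over all genes. The list was drawn up from general knowledge of let-7, and many of its genes are also growth genes, so the counts describe the genes and not the action of let-7 on them.

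The oncofetal targets, active in embryonic tissue and re-expressed in tumors, had the largest changes. Hmga2, a chromatin architecture protein with many let-7 sites, was 0.20, 2.21 and 0 RPKM in PCN and 14.41, 25.26 and 11.46 in PCT. It was 0.66, 0.14 and 1.06 in PSN and 20.36, 7.83 and 13.20 in PST, and each tumor library exceeded each of the 12 normal libraries. It rose by 4.08 in PCT vs. PCN (2.78 to 5.38, adjusted p = 3.01e-04) and by 3.67 in PST vs. PSN (adjusted p = 2.83e-04) on the log2(RPKM + 0.5) scale. Igf2bp2, an mRNA-binding protein, rose by 3.12 (adjusted p = 0.0176) and 2.64 (0.0306), and Arid3a, a DNA-binding factor, by 1.64 (0.0102) and 1.75 (0.00486). Arid3b rose by 0.40 in PST vs. PSN (adjusted p = 0.0413). Lin28a was listed at 0 RPKM in 17 of 18 libraries and at 0.01 in WCN 3, Igf2bp1 was at or below 0.23, and neither was tested; Lin28b and Igf2bp3 were not analysed here.

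**Figure D5:**
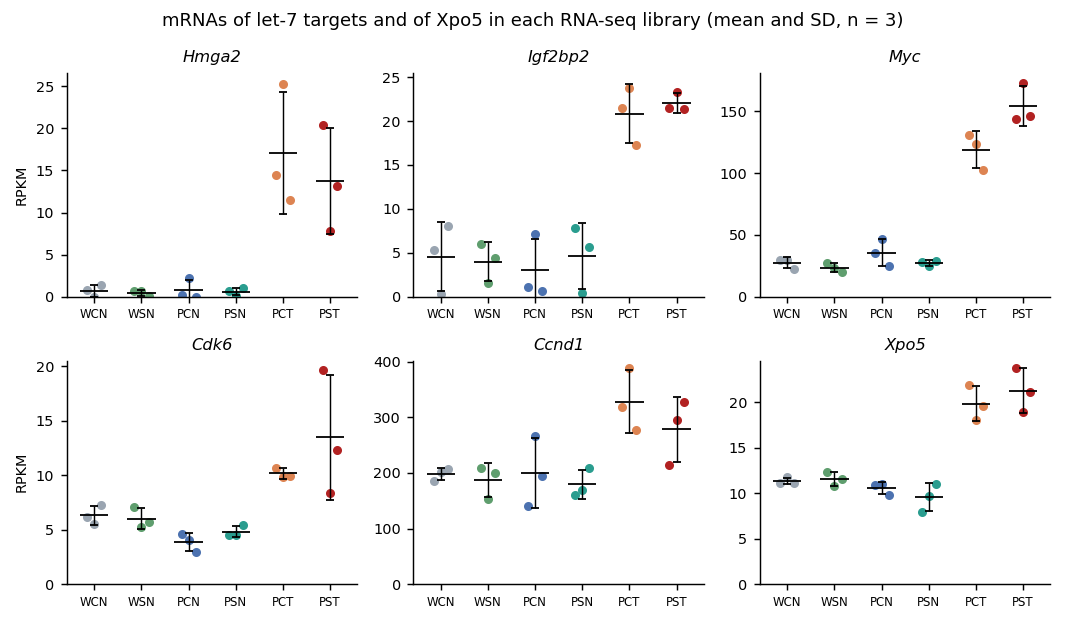
RPKM (y axis, from 0) of 5 let-7 target genes and of Xpo5 in the 18 RNA-seq libraries, by group; points are libraries, bars the mean and SD of 3. Hmga2, Igf2bp2 and Myc are higher in each tumor library than in each normal library, whereas the lowest PST library of Ccnd1 (213.9 RPKM) lies under its highest PCN library (265.97 RPKM).

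In the list that holds the Myc genes 2 of 6 (33.3%) were higher in each tumor comparison. There 21% and 25.9% of all genes were called higher, and 32.7% and 42.3% either way. Myc, a transcription factor of cell growth, was 35.44, 46.45 and 24.69 RPKM in PCN and 131.15, 123.32 and 102.55 in PCT, a rise of 1.77 (adjusted p = 4.00e-05). In PST vs. PSN it rose by 2.47 (adjusted p = 2.15e-06), from 25.0 to 29.3 RPKM in PSN to 144 to 173 in PST. Mycn, its paralog, rose by 1.39 (0.0168) and 1.70 (0.00371).

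Of the cell cycle targets 4 of 6 were higher in each tumor comparison, beside 21% and 25.9% of all genes called higher. Cdk6, a kinase of G1 phase, rose by 1.303 (adjusted p = 0.00102) and 1.32 (5.28e-04), and Ccnd1, cyclin D1, by 0.75 (0.0161) and 0.62 (0.0305). Ccnd2, cyclin D2, rose by 2.09 in PST vs. PSN (0.00157) and was 0.95 in PCT vs. PCN (0.02 to 1.88, adjusted p = 0.111). Aurkb, a mitotic kinase, rose by 1.54 (0.0205) and 1.38 (0.0272), and Cdc34 by 0.60 (0.0238) in PCT vs. PCN, with 0.31 (-0.09 to 0.71) in PST vs. PSN.

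Receptors and signals moved in both directions. Map4k4, a kinase, rose by 1.48 (adjusted p = 6.91e-05) and 1.77 (7.39e-06), and Thbs1, a secreted inhibitor of angiogenesis, by 1.13 (0.00701) and 1.78 (1.83e-04). Igf1r rose by 0.87 in PCT vs. PCN (0.0227), and Tgfbr1 by 0.57 in PST vs. PSN (0.0261). Irs2, an adaptor of the insulin receptor, fell by 0.77 in PCT vs. PCN (0.0235). Of the 3 other targets tested none was called, Rdx being at 0.55 and 0.39 and Lrig2 at -0.13 and -0.36. In PCN vs. WCN, PSN vs. PCN, WSN vs. WCN and PST vs. PCT 0 of 28 targets were called (limma; 6, 2, 0 and 0 at an unadjusted p under 0.05, in that order), beside 0.13%, 0.00866%, 0% and 0% of all genes.

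Regulators of let-7 and the general miRNA machinery were read in the same libraries. Of 6 regulators tested 2 (33.3%) were higher in PCT vs. PCN and 3 (50.0%) in PST vs. PSN. Beside them, 21% and 25.9% of all genes were called higher, and 32.7% and 42.3% either way. Khsrp, which promotes let-7 processing, rose by 0.60 in PCT vs. PCN (adjusted p = 0.0228) and was 0.42 (0.02 to 0.81) in PST vs. PSN. Hnrnpa1, which binds the let-7a primary transcript, rose by 0.92 in PST vs. PSN (0.00261), Dis3l2, a nuclease that degrades tailed let-7 precursors, by 0.49 (0.0251), and Syncrip, an RNA-binding protein, by 0.84 (0.00392) and 1.42 (4.75e-05). Trim25, a cofactor of that tailing, was 0.74 (0.14 to 1.34) and 0.53 (-0.07 to 1.13), and Tut4, the uridylase that tails let-7 precursors, was listed as Zcchc11 and was -0.04 and 0.26, neither of them called.

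Of 14 processing genes 6 (42.9%) were higher and 0 lower in both tumor comparisons. Over all genes 21% and 25.9% were called higher, and 32.7% and 42.3% either way. Xpo5, the exportin of miRNA precursors, was 10.87, 11.06 and 9.85 RPKM in PCN and 21.9, 18.09 and 19.56 in PCT, a rise of 0.87 (adjusted p = 3.23e-04), and rose by 1.12 in PST vs. PSN (2.42e-05). Ago2, which holds the guide strand, rose by 0.99 (0.00681) and 1.37 (4.58e-04), and Drosha, which cuts the primary transcript, by 0.50 (0.0415) and 0.79 (0.00259). Ran, the partner of Xpo5, rose by 1.10 (0.0128) and 0.86 (0.0325), and Dgcr8 and Ago1 rose by 0.38 to 0.55. Irs2, Cdc34, Tgfbr1, Trim25, Dgcr8, Ago1, Rdx and Lrig2 are named here after their values were seen. Dicer1 was not analysed here. Median-of-ratios scaling, which moved the median of all genes to near 0, turned no sign among 45 calls of these regulator, target and processing genes and ended 11. The calls lost were those of Khsrp, Drosha, Dgcr8 and Cdc34 in PCT vs. PCN and of Dis3l2, Dgcr8, Ran, Ago1, Arid3b, Ccnd1 and Tgfbr1 in PST vs. PSN.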

How the data were processed

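Small RNA-seq and RNA-seq were read from 18 libraries each, 6 groups of 3, grouped by the GEO labels. For the miRNA table, adapters had been trimmed with cutadapt, identical reads collapsed and matched to rat mature miRNAs of miRBase with blastn, and the authors deposited signal values, reads divided by a library factor (559 rows). For mRNA the authors deposited RPKM values (17378 rows, of which 26 with date-like names were left out and 4 share a name). Bowtie2 and DESeq2 are listed by the submitters' processing notes. Tool versions, the genome build and the treatment of reads that match several miRNAs were not given in the sources used here. How multiple matches were counted affects members with near-identical sequences.

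log2(signal + 0.5) of 494 miRNAs (those reaching a signal of 1 in 3 or more libraries) and log2(RPKM + 0.5) of 11544 genes (the same rule) were fitted with limma 3.58.1 (trend and robust, R 4.3.3, statmod 1.5.0), 1 model over 18 libraries with 12 residual degrees of freedom. Fold changes are on these scales and understate those of low genes. There were 9 comparisons and 2 interactions for miRNAs, and 6 comparisons for mRNA. A feature was called where its p, adjusted after Benjamini and Hochberg across every feature of that comparison, was under 0.05, and intervals are 95%. The steps were tested on simulated data. Tables were built in Python 3.11.15 with pandas 2.3.3 and numpy 2.4.6, and figures drawn with matplotlib 3.10.9.

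The alternatives were pseudocounts, filters, reads per total miRNA signal, quantile and median-of-ratios scaling, only the groups compared, a replicate block and leaving out each library. Named were the 9 members, the cluster partners and the 3p arms, up to 4 called genes a list with the largest mean change, fixed genes (Lin28a, Lin28b, Hmga2, Igf2bp1, Igf2bp2, Igf2bp3, Myc, Ccnd1, Ccnd2, Cdk6 and Dicer1), and the 5 miRNAs most like the family. The members and lists were chosen with earlier results of these data known. Sequences and loci are from RefSeq (GRCr8), matched by name. Some listed items are not reported here.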

Additional observations from a re-analysis of the deposited data

Results flagged for a closer look

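Signal was present in rows that the comparisons did not use as members. rno-miR-3596a, rno-miR-3596b, rno-miR-3596c and rno-miR-3596d, which are reverse complements of let-7 members, had mean signals over the 18 libraries of 47730, 2991, 1445 and 1510, above the 1.58 to 9.21 that a count of 0 allows in these libraries. The first repeats the row of let-7a. rno-miR-3596b stood at 91.9% to 95.8% of let-7d, rno-miR-3596c at 99.3% to 99.9% of let-7e and rno-miR-3596d at 2.03% to 7.11% of let-7f. A value above that limit does not show separate signal in a row that nearly repeats a member. Groups of 3 were too small for a search for single deviating libraries within a group.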

How the results depend on the processing

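Limits: 3 libraries a group, rows that share reads, and tissue make-up that moves with tumor. edgeR, DESeq2 and TMM scaling were planned for recovered reads and were not run. Of 2493 refitted member values 149 changed sign; for 121 of these at least one of the fits compared was under 0.1 in size and neither was called. These are not listed one by one, although the other value could reach 0.45 in size. In PST vs. PSN the count of members called, 1, became 0 with a pseudocount of 0.1, no filter, reads per total (RPM) or only the groups compared. In PCT vs. PCN it became 1 with the tumor effect averaged over both diets. In PCT vs. WCN it became 6 under RPM, all higher, and 2 under quantile normalization, where 179 and 111 of all 494 miRNAs were called. In PST vs. WSN it became 5 under RPM, all higher, and 1 under quantile normalization, where 128 and 123 of 494 were called. Median-of-ratios scaling gave 1 regulator in PCT vs. PCN and 3 processing genes in PST vs. PSN, and only the groups compared gave 4 regulators in PCT vs. PCN.

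Values that turned under RPM, which moved the median of all miRNAs from -0.10 to 0.50 in PCT vs. WCN, were rno-let-7b-5p in PST vs. PSN (0.15), rno-let-7a-5p (0.52), rno-let-7d-5p (0.54), rno-let-7f-5p (0.42) and rno-let-7g-5p (0.66) in PCT vs. WCN, rno-let-7d-5p in PST vs. WSN (0.16), rno-let-7f-5p in PCN vs. WCN (0.28), and rno-let-7g-5p (-0.16) and rno-let-7i-5p (-0.18) for genotype by diet. Under quantile normalization they were rno-let-7d-5p in PCT vs. PCN (0.16), PCT vs. WCN (0.29) and PST vs. WSN (0.21), rno-let-7b-5p (0.34) and rno-let-7c-5p (0.19) in PST vs. PSN, and rno-let-7f-5p in PCN vs. WCN (0.18). The causes were not tested.

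Leaving out each library, members called ran from 0 to 1 in PST vs. PSN and in PCT vs. WCN (1 without WCN 2) and from 1 to 2 in PST vs. WSN. Targets called ran from 9 (without PCN 1) to 15 in PCT vs. PCN and from 9 (without PST 3) to 14 in PST vs. PSN, regulators from 1 to 5 and 2 to 5, and processing genes from 3 to 6 in both (3 without PCT 2 or PCN 3, and without PSN 1 or PST 3). Of 99 member ranges 52 crossed 0. Those where the estimate from all libraries and a refit of the other sign were both at least 0.1 in size were, for rno-let-7c-5p, -0.42 to 0.16 (genotype by diet); for rno-let-7d-5p, -0.16 to 0.53 (PCN vs. WCN), -0.51 to 0.18 (PCT vs. WCN), -0.39 to 0.17 (PST vs. WSN), -0.28 to 0.41 (WSN vs. WCN) and -0.34 to 0.22 (tumor by diet); for rno-let-7f-5p, -0.14 to 0.41 (PSN vs. PCN) and -0.12 to 0.42 (PST vs. PSN); for rno-let-7g-5p, -0.12 to 0.45 (PSN vs. WSN) and -0.11 to 0.45 (genotype by diet); for rno-let-7i-5p, -0.14 to 0.44 (PSN vs. WSN and genotype by diet); and for rno-miR-98-5p, -0.40 to 0.11 (WSN vs. WCN).

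With the replicate number as a block in a fit of only the groups compared, 1 member was called in PCT vs. PCN (let-7e, adjusted p = 0.0498) and 0 in PST vs. PSN (let-7e, adjusted p = 0.152), against adjusted p = 0.104 and 0.110 for let-7e in that fit with no block. The blocked fit gave 3 processing genes in PST vs. PSN, 13 and 11 targets, and 2 and 2 regulators. Same-numbered libraries did not all deviate together: the correlations were 0.04, -0.12 and 0.22 for PCN with PCT and 0.15, -0.02 and -0.04 for PSN with PST in miRNA, and 0.10, 0.09 and 0.19, and 0.13, -0.05 and 0.02, in RNA-seq, so the numbers were not taken as pairs.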
